A study of Homo sapiens with 9 samples.

Results

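Transcripts of 10 genes whose products let a carcinoma cell restrain or evade immune cells were followed across the 9 RNA libraries of HSC-3, a human oral squamous carcinoma line. The genes were taken by symbol, as a set proposed with earlier results of these data known: CD274 (PD-L1), PDCD1LG2 (PD-L2), CD276 (B7-H3), VTCN1 (B7-H4), LGALS9 (galectin-9), IDO1, NT5E (CD73), CD47, PVR and NECTIN2. They are 10 of 60612 annotated genes, and 9 of them were among the 16990 genes with enough counts to be tested; VTCN1 was not. WT is the parental line, MPTN24 was taken as the line exposed to the VEGF receptor inhibitor apatinib for 24 h, and MPTN as the line grown in apatinib until resistant, each with 3 libraries. The labels give the group names without spelling them out, so the reading of MPTN24 and MPTN rests on the study's design text. No source says whether apatinib was still present when MPTN was harvested, how many resistant derivatives were made, or whether the replicates were separate cultures. Every p-value therefore measures only the spread between these libraries, which may be technical. All groups are derivatives of the same line grown alone, without immune cells, so the libraries report what the carcinoma cells transcribe and not what a receptor on another cell received.

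Immune checkpoint ligands are surface or secreted molecules of tumour and stromal cells that bind inhibitory receptors of lymphocytes or phagocytes. CD274 and PDCD1LG2 bind the receptor PDCD1 (PD-1) on T cells, PVR and NECTIN2 bind TIGIT and the activating receptor CD226, and CD47 binds SIRPA on macrophages. IDO1 and NT5E are enzymes: IDO1 degrades tryptophan to kynurenine, and NT5E makes extracellular adenosine from AMP, both products that dampen T cells. In squamous carcinomas of the mouth the PD-1 pathway is a target of antibody treatment, and CD274 transcription is known to respond to interferon gamma.

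The carcinoma label matched the transcripts: all 12 squamous epithelial markers examined were tested, with a summed level of 17700 to 25300 CPM (counts scaled to library depth) per library. The list also shifted: 4 of the 12 were called lower in MPTN24 against WT (1 to 7 when each library was left out), and 6 lower and 2 higher in MPTN against WT. Of all tested genes, 11.1% were called higher and 12.1% lower in MPTN24 against WT, and 18.3% and 18.1% in MPTN against WT. EPCAM was at 122 ± 6 CPM in WT, 91 ± 9.2 in MPTN24 and 60.6 ± 4.8 in MPTN. Some markers went the other way in MPTN. KRT17 was at 1050 ± 380 CPM in WT, 665 ± 46 in MPTN24 and 1670 ± 200 in MPTN. PERP was at 373 ± 18, 336 ± 29 and 537 ± 42 CPM in the same order. The part of this shift in the ligand results was not tested. Of 12 leukocyte markers, 7, including PTPRC, CD3E and MS4A1, had a count of 0 in all 9 libraries. The summed leukocyte list was 71.6 to 91.6 CPM in WT, 121 to 140 in MPTN24 and 82.4 to 89.5 in MPTN, and most of it was CD68, a lysosomal protein that epithelial cells also make. Of the 4 leukocyte markers tested, 3 were called higher in MPTN24 against WT: CD68 (from 70.6 ± 11 to 110 ± 8 CPM), LAPTM5 (from 5.01 ± 0.17 to 14.1 ± 1.5 CPM, and 3.1 ± 0.5 in MPTN) and ITGAM (from 0.342 ± 0.20 to 1.05 ± 0.16 CPM). Their part in the results for MPTN24 was not tested. Fibroblast markers summed to 10.8 to 19.4 CPM and endothelial markers to 0.524 to 1.74 CPM across the groups. Total estimated counts per library were 60383313 to 98890929. WT 1 (replicate 1 of WT) stood apart from the other WT libraries. Each library was compared with the mean of the other libraries of its group, over 10581 genes with at least 5 CPM. In WT 1, 177 genes lay 2-fold or more from that mean, against 22 to 57 in the other libraries. In WT 1, FOS was at 73.4 CPM, against 718 and 693 in WT 2 and WT 3, and mitochondrial transcripts took 4.74% of counts, against 2.72% and 3.02%. FOS was at 67.7, 91.9 and 75.7 CPM in MPTN24 and at 256, 260 and 204 in MPTN. Mitochondrial transcripts took 5.04% to 5.73% of counts in MPTN24 and 4.66% to 5.13% in MPTN. In both values WT 1 was nearer to MPTN24 than to WT 2 and WT 3, and the cause was not tested. Several ligand genes were also higher in WT 1 than in WT 2 and WT 3, so the ligand changes against WT are given with and without WT 1.

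Per transcript length, as FPKM (fragments per kilobase of transcript, scaled to depth), the ligands fell into 3 tiers that were the same in every group. In WT, NT5E was the most abundant at 70.6 ± 10 FPKM (SD, n = 3), followed by CD47 at 34.8 ± 2.8, CD276 at 24.3 ± 1.7, PVR at 17.7 ± 1.8 and NECTIN2 at 12.4 ± 1.6. The ranges of these 5 neighbours in the WT order did not overlap. PDCD1LG2 at 2.62 ± 0.74, CD274 at 2.5 ± 0.8 and LGALS9 at 1.96 ± 0.44 FPKM formed the next tier, in which CD274 overlapped with both others. IDO1 and VTCN1 lay at or near the limit of detection.

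Within the upper tier, more neighbours overlapped in MPTN24 and MPTN than in WT. In MPTN24, NT5E was at 99.8 ± 8.6 FPKM, and CD276 at 36 ± 3.7 was no longer separate from CD47 at 32.3 ± 4.9. PVR at 18.5 ± 0.29 and NECTIN2 at 18.2 ± 0.86 FPKM also overlapped there. In MPTN, CD47 at 41.5 ± 1.1 overlapped with CD276 at 41.4 ± 3.5, and PVR at 23.4 ± 0.76 with NECTIN2 at 21.7 ± 1.9. PDCD1LG2 at 5.99 ± 0.69 FPKM lay above CD274 at 4.44 ± 0.62 in MPTN, with ranges that did not overlap, and CD274 lay above LGALS9 at 2.06 ± 0.21.

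**Figure D1:**
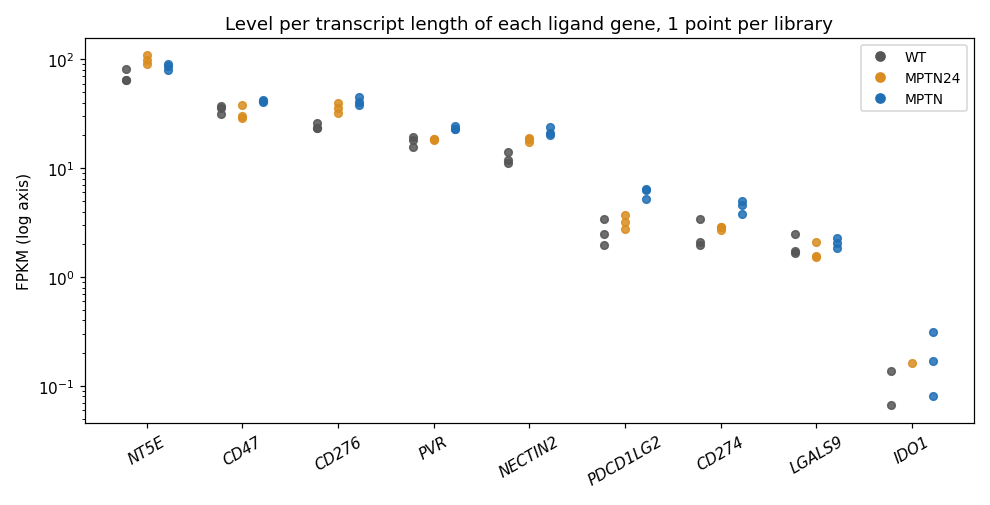
FPKM (log axis) of 9 ligand genes in each library, coloured by group, with genes ordered by their mean over all libraries. NT5E is highest in every group and IDO1 lowest; VTCN1 and the IDO1 libraries at 0 cannot be shown on a log axis.

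The tested ligands rose or did not pass the test, and none was called lower, in edgeR's quasi-likelihood test at a Benjamini-Hochberg adjusted p under 0.05. In MPTN24 against WT, 3 of the 9 tested ligands were called higher (CD276, NT5E and NECTIN2), while 11.1% of all tested genes were called higher and 12.1% lower. In MPTN against WT, 5 of 9 were called higher (CD274, PDCD1LG2, CD276, PVR and NECTIN2), against 18.3% of all tested genes called higher and 18.1% lower. In MPTN against MPTN24, 2 of 9 were called higher (PDCD1LG2 and PVR), against 7.85% of all tested genes called higher and 6.7% lower. The median log2 change of the 8 tested ligands other than IDO1 was 0.19, 0.48 and 0.32 in the 3 comparisons, beside 0, 0.02 and 0.01 for all tested genes. IDO1, which passed the filter through MPTN, would bring these medians to 0.14, 0.66 and 0.32. The 2 comparisons with WT share the WT libraries, and the other pairs of comparisons share MPTN24 or MPTN, so they are not independent of each other. With 8 libraries, WT 1 left out, the ligands called higher were 5, 6 and 4 in the same order, and 1, NT5E, was called lower in MPTN against MPTN24. The share of all tested genes called in that fit was 12.9% higher and 14.4% lower, 18.4% and 18.7%, and 10.5% and 9.81%.

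**Figure D2:**
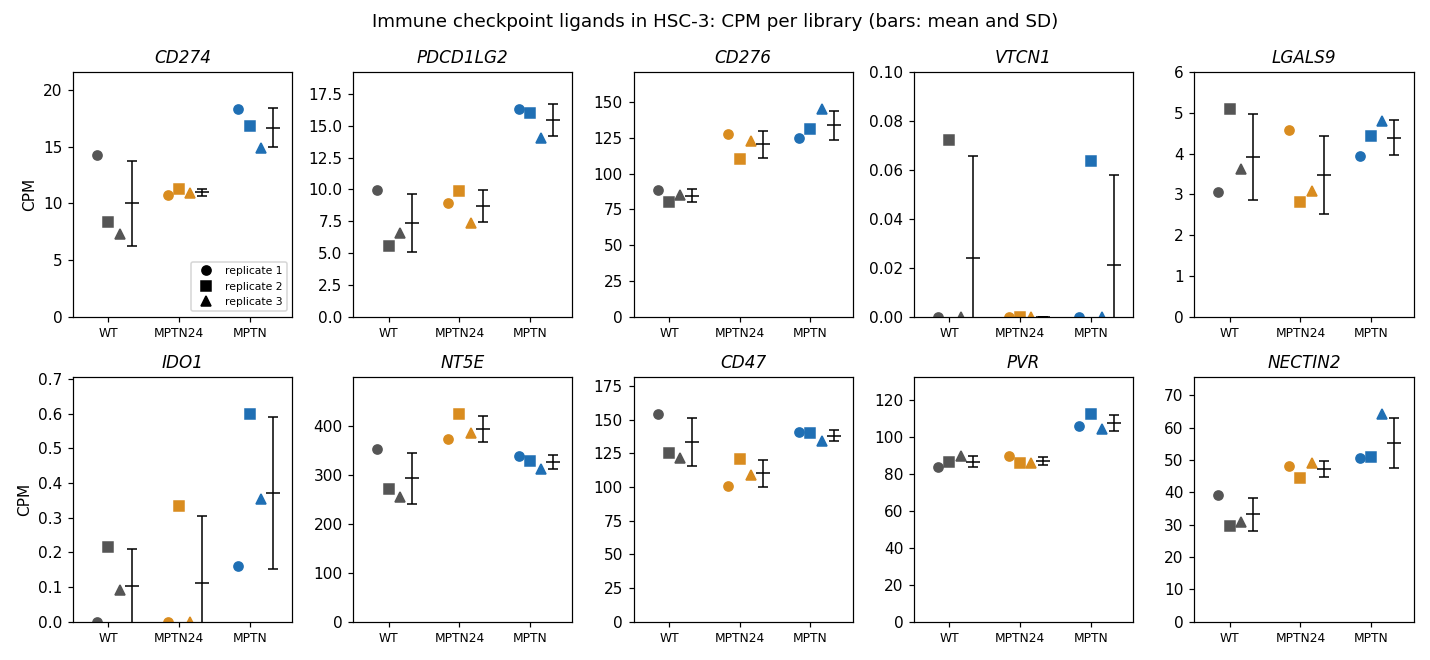
CPM of the 10 genes in each library, with a symbol for each replicate number and bars for the group mean and SD. The 3 MPTN libraries lie above all WT libraries for CD274, PDCD1LG2, CD276, PVR and NECTIN2, and WT 1 is the highest WT library for CD274, PDCD1LG2, CD276, NT5E, CD47 and NECTIN2.

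**Figure D3:**
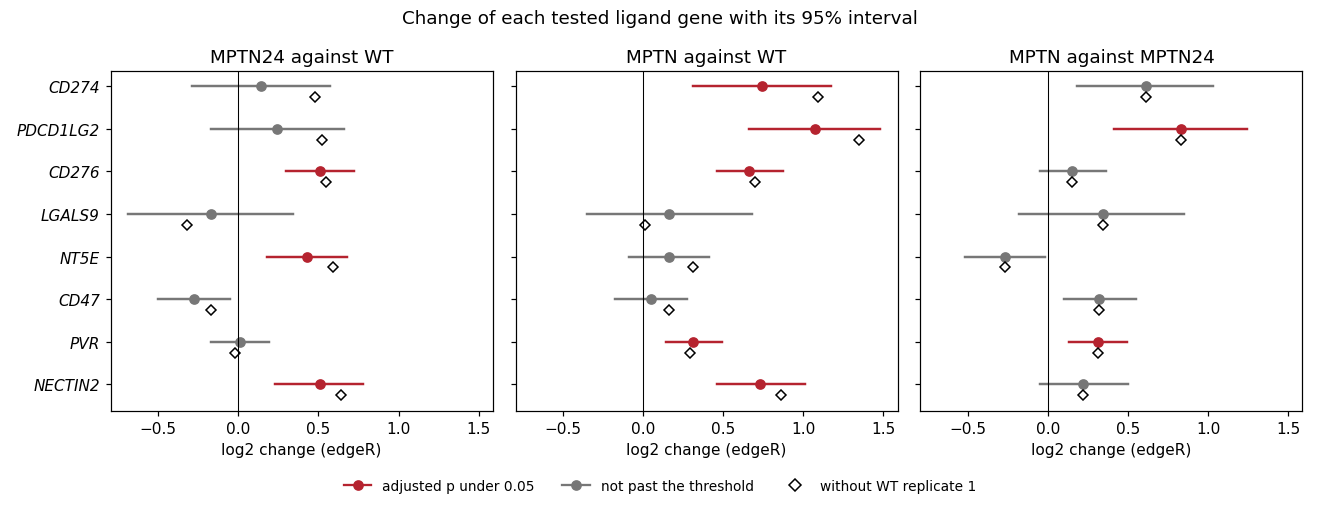
Log2 change of 8 tested ligand genes in the 3 comparisons, with 95% intervals (red for an adjusted p under 0.05, grey otherwise) and open diamonds for the fit without WT 1. In MPTN against WT the intervals of 5 genes lie wholly above 0; IDO1, with an interval of -1.05 to 4.72, is not drawn.

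The PD-1 ligands CD274 and PDCD1LG2 were both higher in MPTN than in WT. CD274, on chromosome 9 at 5450503 to 5470566 of GRCh38, encodes PD-L1. CD274 was at 14.3, 8.36 and 7.31 CPM in WT, at 10.7, 11.3 and 10.9 in MPTN24 and at 18.3, 16.8 and 14.9 in MPTN. The 3 MPTN libraries lay above all other libraries, whereas the MPTN24 values fell between WT 1 and the other WT libraries. CD274 rose by 0.74 ± 0.20 on the log2 scale (SE; 95% interval 0.31 to 1.17) in MPTN against WT, a 1.67-fold difference with an edgeR adjusted p of 0.0099. In a bulk library, more cells with the transcript and more transcript per cell cannot be told apart. In MPTN24 against WT the log2 change of CD274 was 0.14 ± 0.20, with an interval of -0.29 to 0.57 and an edgeR adjusted p of 0.68.

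WT 1 held 1.83 times the mean CD274 level of WT 2 and WT 3. Without WT 1, the log2 change of CD274 was 1.09 in MPTN against WT, and in MPTN24 against WT it was 0.48 with an edgeR adjusted p of 0.014. In MPTN against MPTN24 the CD274 log2 difference of 0.61 ± 0.20 missed the threshold narrowly (edgeR adjusted p = 0.058), though the groups did not overlap. It passed in some of the alternatives run, such as without WT 1 (adjusted p = 0.0021), without WT 3 (adjusted p = 0.033) and with DESeq2 (adjusted p = 0.032), and its adjusted p was 0.08 to 0.16 when any MPTN or MPTN24 library was left out.

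PDCD1LG2 encodes PD-L2, the other PD-1 ligand, and lies on the same strand 40 kb beyond CD274, at 5510531 to 5571282. It was at 9.95, 5.56 and 6.57 CPM in WT, at 8.91, 9.86 and 7.36 in MPTN24 and at 16.3, 16 and 14 in MPTN. Again the MPTN libraries stood above the other 6, and WT 1 overlapped with MPTN24. PDCD1LG2 had the largest log2 change among the called ligands, 1.07 ± 0.19 in MPTN against WT (interval 0.66 to 1.48), a 2.1-fold difference with an edgeR adjusted p of 0.00069. Against MPTN24 it rose by 0.83 ± 0.19 (1.77-fold, edgeR adjusted p = 0.011), a call that was lost when MPTN24 3 was left out (adjusted p = 0.064). In MPTN24 against WT the log2 change was 0.24 ± 0.19 with an adjusted p of 0.40, and 0.52 with 0.024 when WT 1 was left out.

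The balance between the PD-1 ligands was compared per length, as the PDCD1LG2 share of their summed FPKM. The WT libraries had shares of 50.1%, 48.5% and 55.5%, the MPTN24 libraries 54.4%, 56.1% and 49%, and the MPTN libraries 56.5%, 58% and 58%. The MPTN share lay above every WT and MPTN24 library. It was 6.1 percentage points above WT and 4.3 above MPTN24, each with an exact two-sided permutation p of 0.1, the smallest that 3 against 3 libraries allow, and MPTN24 was 1.8 points above WT (exact p = 0.7).

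The promoters show what lies upstream of the ligand genes in the reference genome, and the windows with a match to the motif of a known regulator of a transcribed ligand gene are printed. RefSeq (GRCh38.p14) promoter windows, from 250 bases before to 50 after each start, were used for 8 of the 10 genes, 9 windows in all since CD276 had 2. PDCD1LG2 and IDO1 had no entry. The windows were searched on both strands for 5 motifs. These were the STAT site GAS (TTC and GAA with a gap of 3 bases), the interferon-stimulated element ISRE (GAAA repeated after a gap of 2 bases), the NF-kB consensus, the AP-1 site TGANTCA and the E-box CACGTG. Capitals below mark the matches in the windows of CD274, which was called in MPTN against WT alone, of LGALS9, which did not pass any test, and of CD276, which rose in both comparisons with WT.

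CD274, chr9:5450292-5450591, plus strand: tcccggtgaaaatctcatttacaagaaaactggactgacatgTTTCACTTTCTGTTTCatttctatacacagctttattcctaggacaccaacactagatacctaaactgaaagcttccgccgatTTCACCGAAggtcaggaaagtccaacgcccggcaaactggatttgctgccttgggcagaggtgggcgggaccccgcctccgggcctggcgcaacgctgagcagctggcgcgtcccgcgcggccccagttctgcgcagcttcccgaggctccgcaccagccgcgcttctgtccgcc

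LGALS9, chr17:27630938-27631237, plus strand: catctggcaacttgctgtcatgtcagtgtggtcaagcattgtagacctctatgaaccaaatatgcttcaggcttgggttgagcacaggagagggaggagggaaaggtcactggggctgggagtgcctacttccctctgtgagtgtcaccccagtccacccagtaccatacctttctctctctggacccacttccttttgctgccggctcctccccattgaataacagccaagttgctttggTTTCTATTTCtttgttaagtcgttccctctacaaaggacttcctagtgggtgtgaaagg

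CD276, second window, chr15:73684520-73684819, plus strand: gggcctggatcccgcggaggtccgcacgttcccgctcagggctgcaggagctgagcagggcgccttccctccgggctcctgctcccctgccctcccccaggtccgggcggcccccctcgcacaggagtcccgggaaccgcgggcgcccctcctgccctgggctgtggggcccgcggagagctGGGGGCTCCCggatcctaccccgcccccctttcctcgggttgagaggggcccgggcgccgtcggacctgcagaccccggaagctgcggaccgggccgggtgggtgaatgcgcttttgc

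In the CD274 window, 2 overlapping ISRE matches spanned positions -208 to -193 from the start and 1 GAS match positions -125 to -117. The LGALS9 window held 1 ISRE match at positions -9 to 1, and the second CD276 window held 1 NF-kB match at positions -68 to -59. VTCN1 held 1 AP-1 match, and the windows of CD47, NT5E, PVR and NECTIN2 and the first CD276 window held no match to these 5 patterns. Over 35116 human promoter windows of the same length, GAS was found in 7.66%, ISRE in 3.57%, the NF-kB consensus in 11.3%, AP-1 in 7.71% and the E-box in 7.26%. These are letter matches only; no binding was measured.

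Around CD274 and PDCD1LG2, within 250 kb on either side, 13 other genes are annotated and 5 were tested. In MPTN against WT, 1 of them was called higher and 1 lower, with a median log2 change of 0.3. Of all tested genes, 18.3% were called higher and 18.1% lower there. A shared change of the region was not tested. PLGRKT, a plasminogen receptor next to CD274, was called higher in MPTN against WT (log2 0.72 ± 0.15, from 18 to 29.7 CPM, edgeR adjusted p = 0.0016). RIC1, beyond PDCD1LG2, was called lower (-0.43 ± 0.12, edgeR adjusted p = 0.012). ERMP1, next to RIC1, narrowly missed the threshold (0.3 ± 0.12, edgeR adjusted p = 0.057). The antisense transcript AL162253.2, which overlaps both ligand genes, did not pass the test (-0.43 ± 0.24, adjusted p = 0.18). It held 1298 counts over all 9 libraries, against 8348 for CD274, and the kit does not record strand, so reads shared with it cannot be separated.

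**Figure D4:**
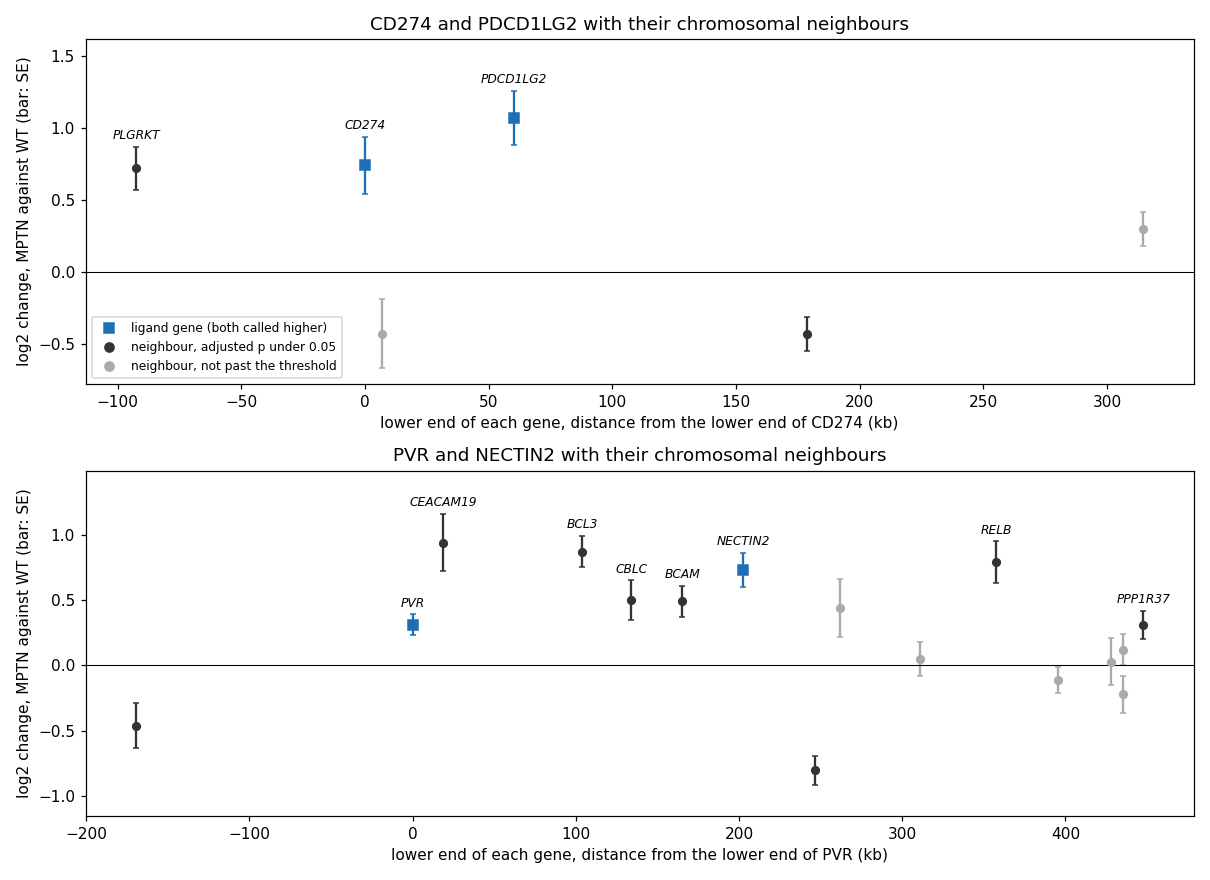
Log2 change in MPTN against WT (bars, SE) of tested genes, at 1 CPM or more in either group, within 250 kb of CD274 and PDCD1LG2 (top) and of PVR and NECTIN2 (bottom), by distance in kb from CD274 or PVR. Squares are the 4 ligand genes, dark points other called genes and light points genes that did not pass the test. PLGRKT beside CD274 and 6 genes around PVR and NECTIN2 were also higher, and RIC1 in the top panel and TOMM40 and ZNF180 in the bottom panel were lower. Of all tested genes, 18.3% were called higher and 18.1% lower.

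Among the known steps between interferon gamma and CD274, 12 genes were listed and tested. When MPTN was set against WT, 4 were called higher and 1 lower, with a median log2 change of 0.22. For this and the later lists, the shares of all tested genes called were 18.3% higher and 18.1% lower in MPTN against WT. These shares were 11.1% and 12.1% in MPTN24 against WT, and 7.85% and 6.7% in MPTN against MPTN24. IRF9, the DNA-binding subunit of the interferon-activated complex that recognises ISRE, rose from 2.77 ± 0.67 to 13.4 ± 3.5 CPM (log2 2.27 ± 0.24, edgeR adjusted p = 1.2e-05). The receptor chain IFNGR2 rose by 0.56 ± 0.10 (edgeR adjusted p = 0.00089), as did SOCS1, an inhibitor of the same receptors, by 0.94 ± 0.30 (edgeR adjusted p = 0.024, and 0.07 without WT 2 or 0.1 without MPTN 3). In MPTN24 against WT, 3 of the 12 were called higher (1 to 3 with each library left out) and 3 lower (2 to 4). IRF9 rose to 6.45 ± 1.5 CPM there (1.22 ± 0.24, edgeR adjusted p = 0.0031) and SOCS1 rose by 0.99 ± 0.30 (edgeR adjusted p = 0.03). SOCS3 fell by -0.76 ± 0.14 (edgeR adjusted p = 0.0023). In MPTN against MPTN24, 5 of the 12 were called higher and none lower, and the count fell to 3 when any of the 6 libraries of those groups was left out.

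A second list held 12 genes that control CD274 transcription or the stability of its protein. Here 2 rose and 5 fell in MPTN against WT, with a median log2 change of -0.23. The transcription factors MYC (-0.86 ± 0.11, edgeR adjusted p = 5.1e-05), HIF1A (-0.71 ± 0.16, edgeR adjusted p = 0.0038) and NFKB1 (-0.52 ± 0.10, edgeR adjusted p = 0.00093) were lower in MPTN. GSK3B, a kinase that marks PD-L1 for degradation, fell from 209 ± 19 to 154 ± 17 CPM (edgeR adjusted p = 0.0039). HIP1R went the other way, from 73.9 ± 2.4 CPM in WT to 92.8 ± 7.3 in MPTN. Without WT 2 or MPTN 3, 1 of the list rose in place of 2. In MPTN24 against WT, 3 of the list fell (1 to 3 with each library left out) and none rose. MYC (-0.7 ± 0.11, edgeR adjusted p = 0.00089) and HIF1A (-0.52 ± 0.16, edgeR adjusted p = 0.034) were among those that fell there.

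CD276 and VTCN1 are B7 family members with no settled receptor, and they differed widely in level. CD276 lies on chromosome 15 at 73683966 to 73714514. It was at 88.8, 79.9 and 84.7 CPM in WT, at 128, 110 and 123 in MPTN24 and at 125, 131 and 145 in MPTN. Every MPTN24 and MPTN library lay above every WT library, and MPTN24 and MPTN overlapped. CD276 rose by 0.51 ± 0.10 on the log2 scale in MPTN24 (1.43-fold, edgeR adjusted p = 0.0025) and by 0.66 ± 0.10 in MPTN (1.59-fold, edgeR adjusted p = 0.00014). The log2 difference between MPTN and MPTN24 was 0.15, with an interval of -0.05 to 0.36 and an adjusted p of 0.33. Both calls against WT held in all alternatives run, including each library left out, and the log2 changes were 0.55 and 0.70 without WT 1.

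VTCN1 was at or under the limit of detection in all groups. It had 5 counts in WT 2, 5 in MPTN 2 and 0 in the other 7 libraries. A floor of 12 counts over the 3 libraries of a group, or 3 read pairs if a pair is taken as 4 counts, allows up to 0.054 CPM in WT, 0.063 in MPTN24 and 0.049 in MPTN. No fold is given.

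Of 11 other B7 and butyrophilin ligands, 9 were tested. Of these, 3 rose and 2 fell in MPTN against WT, with a median log2 change of 0.05. BTN3A3, a butyrophilin of the family that engages gamma delta T cells, rose from 5.06 ± 0.88 to 8.11 ± 0.21 CPM (log2 0.68 ± 0.16, edgeR adjusted p = 0.0048); its close copy BTN3A1 leaves the split of their reads uncertain. VSIR (VISTA), an inhibitory ligand, fell from 67.2 ± 16 to 36.9 ± 3.8 CPM (-0.86 ± 0.15, edgeR adjusted p = 0.00055). NCR3LG1 (B7-H6), which activates NK cells through NCR3, fell from 6.1 ± 0.67 to 3.79 ± 0.26 CPM (-0.69 ± 0.18, edgeR adjusted p = 0.0084), a call lost with limma (adjusted p = 0.095 and 0.071). In MPTN24 against WT, BTN2A2 alone rose (0.45 ± 0.13, edgeR adjusted p = 0.025), and the count was 4 without WT 1 and 0 without WT 3, MPTN24 2 or MPTN24 3.

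PVR and NECTIN2, adhesion molecules that bind TIGIT and CD226, lie 180 kb apart on chromosome 19; NECTIN2 was called higher in both comparisons with WT and PVR in MPTN. PVR was at 83.8, 86.1 and 89.6 CPM in WT, at 89.3, 85.6 and 86 in MPTN24 and at 106, 112 and 104 in MPTN. WT and MPTN24 overlapped within a narrow range, and all MPTN libraries lay above it. The log2 change of PVR was 0.01 ± 0.08 in MPTN24 against WT (interval -0.17 to 0.19, edgeR adjusted p = 0.96) and 0.31 ± 0.08 in MPTN against WT (1.24-fold, edgeR adjusted p = 0.0088). Against MPTN24 PVR rose by 0.31 ± 0.08 (edgeR adjusted p = 0.025). The changes against WT were -0.02 and 0.29 without WT 1. Without MPTN 2 the call against WT was lost (adjusted p = 0.051), and the call against MPTN24 was lost without MPTN24 1, MPTN24 2, MPTN24 3, MPTN 1 or MPTN 2 (adjusted p = 0.061 to 0.12).

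NECTIN2 was at 39.1, 29.6 and 31 CPM in WT, at 48.1, 44.6 and 49 in MPTN24 and at 50.6, 50.8 and 64.1 in MPTN. The 3 groups did not overlap, and MPTN 3 was the highest library. NECTIN2 rose by 0.51 ± 0.13 on the log2 scale in MPTN24 (1.42-fold, edgeR adjusted p = 0.012) and by 0.73 ± 0.13 in MPTN (1.66-fold, edgeR adjusted p = 0.00055), or by 0.64 and 0.86 without WT 1. The MPTN24 call was lost without WT 2 (adjusted p = 0.055), MPTN24 1 (adjusted p = 0.051) or MPTN24 3 (adjusted p = 0.055). MPTN and MPTN24 differed by 0.22 with an interval of -0.05 to 0.50 (edgeR adjusted p = 0.28).

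Per length, NECTIN2 made up 43.8%, 41.4% and 38.3% of the summed PVR and NECTIN2 FPKM in the WT libraries. Its share was 50.4%, 48.2% and 50.3% in the MPTN24 libraries and 47.5%, 45.7% and 51.1% in the MPTN libraries. All WT libraries lay below the 6 others. The share was 8.4 percentage points higher in MPTN24 and 6.9 higher in MPTN than in WT, each with an exact two-sided permutation p of 0.1, the smallest possible. MPTN and MPTN24 overlapped and differed by -1.5 points (exact p = 0.6).

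All 6 other nectins and nectin-like molecules listed were tested, and 3 rose and none fell in MPTN against WT, with a median log2 change of 0.43 (1 fell without MPTN 1). NECTIN4, a cell adhesion molecule of epithelia, rose from 1.97 ± 0.83 to 5.38 ± 0.71 CPM (log2 1.44 ± 0.27, edgeR adjusted p = 0.001). It rose to 5.68 ± 0.39 CPM in MPTN24 (1.52, edgeR adjusted p = 0.0019). CADM1, a ligand of the T cell and NK cell receptor CRTAM, rose from 8.17 ± 0.89 to 17.2 ± 1.1 CPM in MPTN (1.08 ± 0.15, edgeR adjusted p = 7.9e-05). Within 250 kb of PVR and NECTIN2, 18 of 45 other genes were tested and 6 rose and 2 fell in MPTN against WT. Of all tested genes, 18.3% were called higher and 18.1% lower. The NF-kB family genes BCL3 (0.87 ± 0.12, edgeR adjusted p = 0.00011) and RELB (0.79 ± 0.16, edgeR adjusted p = 0.0018) rose. CEACAM19, which overlaps the end of PVR on the same strand, rose too (0.94 ± 0.22, edgeR adjusted p = 0.0038), with 3854 counts in all against 62509 for PVR. TOMM40, next to NECTIN2, fell from 169 to 97 CPM (-0.8 ± 0.11, edgeR adjusted p = 6.2e-05), and ZNF180 fell by -0.46 ± 0.17 (edgeR adjusted p = 0.043).

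CD47, the signal that SIRPA on phagocytes reads, was at 154, 125 and 122 CPM in WT, at 101, 121 and 109 in MPTN24 and at 141, 140 and 134 in MPTN. MPTN24 lay below the other groups, and MPTN fell between WT 1 and the other WT libraries. None of the 3 comparisons passed the test for CD47. The log2 change was -0.28 ± 0.11 in MPTN24 against WT (interval -0.50 to -0.05, edgeR adjusted p = 0.073) and 0.05 ± 0.11 in MPTN against WT (interval -0.18 to 0.27, edgeR adjusted p = 0.77). Without WT 1 these were -0.17 and 0.16. Between MPTN and MPTN24 it was 0.32 ± 0.11 (edgeR adjusted p = 0.055), and without WT 1 that p was 0.012. DESeq2 called CD47 lower in MPTN24 against WT (adjusted p = 0.045).

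Around CD47, 9 other genes of the phagocytosis checkpoint were listed and tested, and 4 rose and 1 fell in MPTN against WT, with a median log2 change of 0.64 (2 fell without WT 1). QPCTL and QPCT encode glutaminyl cyclases, and QPCTL modifies CD47 so that SIRPA can bind. QPCTL rose by 0.64 ± 0.15 (edgeR adjusted p = 0.0046) and QPCT by 0.96 ± 0.11 (edgeR adjusted p = 2.3e-05). B2M, the MHC class I light chain that phagocytes read through LILRB1, rose from 422 ± 13 to 869 ± 53 CPM (1.04 ± 0.09, edgeR adjusted p = 2.6e-06), and in MPTN24 it was at 423 ± 25. LRP1, the receptor of the pro-phagocytic signal calreticulin, rose by 0.89 ± 0.15 (edgeR adjusted p = 0.00054). In MPTN24 against WT, 4 of the 9 rose (2 to 5 with each library left out) and 1 fell. LRP1 (1.1 ± 0.15, edgeR adjusted p = 0.00047) and QPCTL (0.65 ± 0.15, edgeR adjusted p = 0.0088) were among those that rose there. THBS1, a secreted ligand of CD47, fell from 1580 ± 240 CPM in WT to 536 ± 63 in MPTN24 and 349 ± 73 in MPTN (-2.18 ± 0.16 in MPTN against WT, edgeR adjusted p = 6e-07).

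NT5E, on chromosome 6 at 85449584 to 85495791, was at 352, 271 and 254 CPM in WT, at 372, 423 and 386 in MPTN24 and at 339, 328 and 311 in MPTN. MPTN24 was the highest group and did not overlap with either other group, while WT 1 lay above all MPTN libraries. NT5E rose by 0.43 ± 0.12 on the log2 scale in MPTN24 against WT (1.35-fold, interval 0.18 to 0.68, edgeR adjusted p = 0.018). The call was lost without WT 2 (adjusted p = 0.075), WT 3 (adjusted p = 0.074), MPTN24 2 (adjusted p = 0.064) or MPTN24 3 (adjusted p = 0.056). In MPTN against WT the log2 change was 0.16 ± 0.12 (edgeR adjusted p = 0.32), and 0.31 with an adjusted p of 0.014 without WT 1. In MPTN against MPTN24 it was -0.27 ± 0.12 (interval -0.52 to -0.02, edgeR adjusted p = 0.14), and the adjusted p without WT 1 was 0.028.

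Of 15 other adenosine pathway genes, 12 were tested, and 5 rose and 2 fell in MPTN24 against WT while 2 rose and 3 fell in MPTN against WT. The median log2 changes were -0.14 and -0.21. ENTPD3, an ectoenzyme that breaks down ATP, rose in MPTN24 (0.76, edgeR adjusted p = 0.011) and in MPTN (0.83 ± 0.19, edgeR adjusted p = 0.0035). DPP4, which anchors adenosine deaminase at the surface, was at 0.771 ± 0.18 CPM in WT, 2.33 ± 0.47 in MPTN24 and 1.63 ± 0.41 in MPTN (1.07 ± 0.31 in MPTN against WT, edgeR adjusted p = 0.013). That call was lost without WT 2 (adjusted p = 0.06) or MPTN 2 (adjusted p = 0.062). ALPP, a phosphatase that can also make adenosine from AMP, fell from 8.56 ± 4.2 to 1.71 ± 0.27 CPM in MPTN (-2.32 ± 0.38, edgeR adjusted p = 0.00042). In MPTN24 it was at 1.51 ± 0.54 CPM (-2.51 ± 0.38 against WT, edgeR adjusted p = 0.00095). Near-identical copies may share its reads. These counts depend on the libraries: without MPTN24 1 or MPTN24 3, 3 rose in MPTN24 against WT, and 1 fell without WT 2, WT 3 or any of the MPTN24 libraries. In MPTN against WT, 1 rose without MPTN 2.

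IDO1 was barely detected. The WT libraries had 0, 15 and 8 counts, the MPTN24 libraries 0, 22 and 0, and the MPTN libraries 12, 47 and 35. All 3 MPTN libraries had counts, and IDO1 entered the test through that group, so the fact that it was tested is no support for a difference. With 4 counts taken as 1 read pair, MPTN held 24 pairs and WT and MPTN24 6 each. The ratio of MPTN to WT was 3.64 (95% exact interval 1.4 to 10.9) and that of MPTN to MPTN24 3.11 (1.2 to 9.3), intervals that cover counting error only. The edgeR test, which includes the spread between libraries, gave adjusted p-values of 0.32 and 0.46 for these comparisons, so a difference in IDO1 was not detectable.

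Of 14 other kynurenine pathway genes, 11 were tested, and 5 rose and none fell in MPTN against WT, with a median log2 change of 0.41. KYNU, the hydrolase that acts on kynurenine, rose from 42.9 ± 9.6 to 68.1 ± 3.1 CPM (0.67 ± 0.13, edgeR adjusted p = 0.0013). With limma on log2(FPKM + 0.1) KYNU did not pass (adjusted p = 0.85). KYAT1, a kynurenine aminotransferase, rose from 5.49 ± 1.8 to 11.5 ± 1.8 CPM (1.06 ± 0.22, edgeR adjusted p = 0.0019). WARS1, the tryptophanyl-tRNA synthetase, was at 240 ± 41 CPM in WT, 347 ± 17 in MPTN24 and 350 ± 12 in MPTN (0.54 ± 0.12 in MPTN against WT, edgeR adjusted p = 0.0023).

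LGALS9, a galectin that binds HAVCR2 (TIM-3) on T cells, was at 3.05, 5.09 and 3.63 CPM in WT, at 4.58, 2.8 and 3.08 in MPTN24 and at 3.95, 4.44 and 4.79 in MPTN. The 3 groups overlapped, and no comparison passed the test. The log2 change was -0.17 ± 0.24 in MPTN24 against WT (interval -0.69 to 0.34, edgeR adjusted p = 0.66) and 0.16 ± 0.24 in MPTN against WT (interval -0.35 to 0.68, edgeR adjusted p = 0.64). Without WT 1 these were -0.32 and 0.01. LGALS9B and LGALS9C are near-identical copies, so the split of reads among the 3 genes is uncertain. Their summed level was 10.7 ± 1 CPM in WT, 9.31 ± 0.67 in MPTN24 and 11.8 ± 0.36 in MPTN. Of 11 other galectin genes, which include the copies and the binding protein LGALS3BP, 6 were tested and 2 rose in MPTN against WT: LGALS1 from 515 ± 66 to 897 ± 160 CPM (0.80 ± 0.13, edgeR adjusted p = 0.00029) and LGALS3BP from 288 ± 22 to 505 ± 45 CPM (0.81 ± 0.10, edgeR adjusted p = 4.4e-05). Without WT 1, 7 of the 11 were tested, and 2 rose and 1 fell.

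A list of 13 receptors of leukocytes, some of which read the ligands above, was also examined. PDCD1, CTLA4, CD28, TIGIT, PVRIG and TMIGD2 had a count of 0 in all 9 libraries, and SIRPA, CD96 and ADORA2A were tested. SIRPA, the CD47 receptor, was at 17.9 ± 1.8 CPM in WT, 22.7 ± 2.1 in MPTN24 and 19.7 ± 0.41 in MPTN. It was called higher in MPTN24 against WT (0.34 ± 0.12, edgeR adjusted p = 0.048) but not in most of the fits that left out a library of those groups. ADORA2A, an adenosine receptor, was called lower in the same comparison, at 0.0161 ± 0.016 CPM against 0.451 ± 0.28 in WT (edgeR adjusted p = 0.043). No receptor on the list was called lower there without WT 2, WT 3, MPTN24 1, MPTN24 2 or MPTN24 3. ADORA2A entered the test through WT, the group where it was high (102 counts, against 3 in MPTN24 and 16 in MPTN). The fact that it was tested is therefore no support for a difference.

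Over the 9 libraries, the 8 ligands with enough counts formed 28 pairs, and likeness was measured as the mean absolute difference of their log2 CPM after each gene was centred on its own mean. CD276 and NECTIN2 were the closest pair (0.076), followed by CD47 with PVR (0.132) and CD274 with PDCD1LG2 (0.179). Among 10581 genes with at least 5 CPM, those closest to CD274 were P4HA2 (0.08), OAS3 (0.097) and KYNU (0.098). Those closest to PDCD1LG2 were TPBG (0.115), APOL1 (0.138) and ICAM1 (0.145). TINF2 (0.038) was closest to CD276, SLC38A10 (0.044) to NECTIN2, EIF1 (0.036) to PVR and AC005670.3 (0.056) to NT5E. A gene with a small range over the libraries, as PVR with 0.42 log2 units, finds close genes more readily than PDCD1LG2, with a range of 1.55, so the distances are a description.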

How the data were processed

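RNA of 9 HSC-3 libraries was extracted with Trizol and made into libraries with an unstranded Illumina TruSeq kit, per the labels' protocols. The submitters' processing notes name the build GRCh38 and the tools HISAT2, StringTie, edgeR, Trimmomatic, FastQC and CASAVA 1.8, while their settings and the gene annotation are not given in the sources used here. The authors deposited estimated counts for 60612 genes, which are whole numbers, and FPKM values, a unit read from the numbers themselves. Among low counts, 4 and 8 were more frequent than the values beside them, although 1 was the most frequent. A read pair was therefore taken as 4 counts, which was not established, and a floor of 3 pairs as 12 counts. Counts are not independent molecules. Intervals and floors from counts rest on that conversion and cover counting error only.

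The estimated counts were used as deposited. Genes were filtered with filterByExpr (minimum count 10, total 15) and scaled by TMM, and the 9 libraries entered a shared robust quasi-likelihood fit in edgeR 4.0.16 under R 4.3.3, with contrasts for the 3 comparisons and Benjamini-Hochberg adjustment over the 16990 tested genes at 0.05. CPM are TMM-scaled, given as mean and SD of 3 libraries. FPKM was used for levels between genes, for shares (exact permutation tests) and for limma.

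The members and lists were chosen with earlier results of these data known, and list counts and medians leave the 10 genes out. From each list, up to 3 called genes per comparison with the largest change and at least 1 CPM were eligible to be named, and for each called ligand the 3 genes closest to it over the libraries. PLGRKT, RIC1, ERMP1, BCL3, RELB, CEACAM19, TOMM40 and ZNF180 were named for their position or after their values were seen. GSK3B, HIP1R, ADORA2A, FOS, the markers and the overlapping or copied genes were named for their position, for a check or after their values were seen. Motifs were searched in RefSeq promoter windows of GRCh38.p14. Alternatives changed the tool (DESeq2 1.42.0, or limma 3.58.1 on log2(FPKM + 0.1) and log2(FPKM + 1)), the scaling (RLE, upper quartile), the filter (none, or at least 1 CPM in 3 libraries) and the counts (divided by 4). Others left out each library, fitted the compared groups alone, added a replicate block, or took shares of summed CPM. No column of values was left out.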

Additional observations from a re-analysis of the deposited data

How the results depend on the processing

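No change of a ligand that was called reversed under any alternative. Of the ligand results recomputed under the alternatives, 473 kept their side of the threshold, 19 gained a call and 14 lost it. With each library left out, the ligands called higher were 1 to 5 in MPTN24 against WT, 4 to 6 in MPTN against WT and 0 to 4 in MPTN against MPTN24, and those called lower were 0 to 0, 0 to 0 and 0 to 1. The lowest counts came without WT 2, MPTN 2 and MPTN24 3, the highest without WT 1. For all genes, the calls ranged from 1022 to 2286 higher and 935 to 2535 lower, from 2468 to 3251 and 2441 to 3307, and from 741 to 1860 and 569 to 1732. In MPTN against MPTN24, 4 ligands were higher with the stricter filter, with only the 2 groups, with DESeq2 and with counts divided by 4, and 1 was lower with only the 2 groups. DESeq2 called 1 ligand lower in MPTN24 against WT. Limma on log2(FPKM + 0.1) and log2(FPKM + 1) called 1002 and 1001 genes lower in MPTN24 against WT, 1867 and 1881 in MPTN against WT, and 634 and 639 in MPTN against MPTN24. The higher share of all calls, 47.9%, 50.4% and 54% in the 3 comparisons, was 65.5%, 66.4% and 67.8% with limma and a pseudocount of 0.1, 65.1%, 66.3% and 69.3% with 1, and 59.3% with upper-quartile scaling in the first. Limma with 0.1 moved the median of all genes to 0.12 in MPTN against WT. The cause of these changes was not tested.

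The shared replicate numbers did not pair the libraries: deviations of same-numbered libraries correlated at -0.03 to 0.07. With a replicate block, 3, 5 and 3 ligands were higher and none lower, and 1951, 3157 and 1330 genes were higher and 2036, 3026 and 1173 lower; CD274 passed in MPTN against MPTN24 (0.59, adjusted p = 0.032).

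Leaving out a library moved the PDCD1LG2 share difference from 0.3 to 3.9, 4.7 to 8.2 and 2.2 to 5.8 points, and that of NECTIN2 from 7 to 9.8, 5.4 to 8.2 and -3 to -0.3. With 3 libraries a group, these shares cannot reach a p under 0.1. IDO1 and VTCN1 had too few counts for a difference between groups to be judged.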

Other observations

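Ligands of other immune receptors were also counted in MPTN against WT, where 18.3% of all tested genes were called higher and 18.1% lower. Of 10 costimulatory ligands, all tested, 6 rose and 1 fell, with a median log2 change of 1.03. CD40, through which T cells activate antigen-presenting cells, rose from 8.99 ± 0.42 to 18.2 ± 0.081 CPM (SD, n = 3; log2 1.01 ± 0.12, edgeR adjusted p = 3.5e-05). ICAM1, the adhesion ligand of lymphocyte integrins, rose from 95.1 ± 39 to 197 ± 5.6 CPM (1.05 ± 0.22, edgeR adjusted p = 0.0043) and was at 92.7 ± 6.5 CPM in MPTN24. TNFSF15 rose from 5.53 ± 0.66 to 14.3 ± 2.4 CPM (1.37 ± 0.16, edgeR adjusted p = 2.4e-05). Without WT 1, 2 of the 10 fell.

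Of 10 ligands that activate NK cells, 4 rose and 1 fell. ULBP1 rose from 0.826 ± 0.22 to 3.26 ± 0.60 CPM (1.97 ± 0.28, edgeR adjusted p = 0.00011), RAET1L from 0.714 ± 0.11 to 2.72 ± 0.18 CPM (1.92 ± 0.27, edgeR adjusted p = 9.8e-05) and RAET1G by a log2 change of 1.2 ± 0.2 (edgeR adjusted p = 0.00043). All 3 encode ligands of the receptor NKG2D and have related sequences, so the split of reads among them is uncertain. Of 14 other inhibitory ligands, 9 were tested, and 5 rose and 2 fell. TNFRSF14 (HVEM), the ligand of BTLA, rose from 7.21 ± 1.9 to 18.2 ± 3.2 CPM (1.34 ± 0.18, edgeR adjusted p = 8.4e-05), CEACAM1 from 0.666 ± 0.43 to 2.95 ± 0.61 CPM (2.16 ± 0.39, edgeR adjusted p = 0.00073, or 2.81 without WT 1) and TNFSF10 (TRAIL) from 7.28 ± 1.6 to 16.8 ± 1.8 CPM (1.21 ± 0.17, edgeR adjusted p = 9.1e-05). PTGS2, which makes prostaglandins, was at 37.9 ± 11 CPM in WT, 11 ± 0.58 in MPTN24 and 19.2 ± 2.7 in MPTN (-0.98 ± 0.18 in MPTN against WT, edgeR adjusted p = 0.00088).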
